A study of Mus musculus with 12 samples.

Results

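Mouse natural killer (NK) cells that had received anti-NK1.1 antibody for 6 h and carried no signal of an interferon gamma reporter (YFP-) were compared with unstimulated NK cells. The samples were selected by their labels alone and not by any measured value. They are 8 of the 12 samples of the series, 4 per group. All mice were of strain B6.129S4-Ifngtm3.1Lky/J with genotype mut/mut, so the controls carried the yellow fluorescent protein (YFP) reporter allele of Ifng as well. Every title also bears the words HD IL-15, so the groups share that exposure and the comparison does not address it. Unstimulated samples have no time in their labels. Each group holds 1 sample with each of the replicate labels f2, m2, m3 and m4, whose titles mark f2 as F and the others as M2, M3 and M4. The labels do not say whether a replicate label stands for 1 mouse or a pool, so p-values measure the spread between these samples. The stimulated cells were also divided by reporter signal, and the labels name no such division for unstimulated cells, so effects of stimulation and of taking the reporter-negative fraction cannot be told apart. The other 4 samples, stimulated reporter-positive (YFP+) cells, entered the fit for its estimate of spread and are given beside some results. Of 55487 features in the table, 12364 had a log2 CPM (read count relative to the library total) above 0 in at least 4 of the 12 samples and were tested.

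NK cells are lymphocytes that kill infected or transformed cells with perforin and granzymes and secrete cytokines such as interferon gamma. NK1.1 is an activating receptor of the Klrb1 family that signals through an adaptor with an immunoreceptor tyrosine-based activation motif (ITAM). Src and Syk family kinases then act through phospholipase C gamma, calcium, MAP kinases and NF-kappaB on early transcription factors. IL-15 sustains NK cell survival, growth and granzyme content through STAT5 and mTOR.

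Library totals were 32.4 to 39.8 M reads in unstimulated and 43.4 to 49.3 M in YFP- samples, where M stands for mega. Features resembling ribosomal RNA took 27.4 to 35.3% of reads in unstimulated samples and 15.9 to 30.3% in YFP- samples, so part of the scaling differs between the groups. The lowest level that 3 reads could show was 0.0608 to 0.0925 CPM. Summed levels of 10 NK markers were 10847 to 13215 CPM in unstimulated and 16967 to 20526 CPM in YFP- samples, with 3 members higher and 5 lower. Gzmb is among these markers, and its rise, given below, was about as large as the rise of the sum. Among 10 T cell markers, the sum was 513 to 582 CPM against 742 to 846 CPM. Trbc1, Trbc2 and Trac were called higher, from means of 325, 156 and 7.43 to 467, 252 and 34.3 CPM, while Cd3e stayed under 1 CPM on average in both groups (0.529 and 0.915) and Cd8a had 0 to 3 reads per unstimulated and 0 to 4 per YFP- library. Of the 10 markers 5 were tested, with 3 called higher and 0 lower. The genes named do not make up the whole sum, so other listed T cell markers also held reads. Monocyte and macrophage markers summed to 70.8 to 81.9 against 35.1 to 58.0 CPM, with Cd68 and Ly6c2 lower, B cell markers to 132 to 190 against 174 to 325 CPM, and neutrophil markers to at most 2.05 CPM, with S100a9 and Retnlg at 0 reads in all 8 samples. Dendritic cell markers summed to 124 to 150 against 82.9 to 103 CPM (3 higher, 1 lower), mast cell and basophil markers to 47.8 to 58.7 against 49.4 to 67.0 CPM, markers of ILC2 and ILC3 to 46.5 to 51.2 against 55.2 to 99.1 CPM (1 higher), and erythroid and platelet markers to at most 0.527 CPM. The part of these cells in the results was not tested. In bulk samples, fewer cells of a type and less RNA per cell cannot be told apart.

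Expression changed widely between unstimulated and reporter-negative stimulated cells, and different programmes moved in opposite directions. Genes for secreted cytokines, surface receptors of activation, ribosome assembly, amino acid supply, protein folding and the proteasome were mostly higher. NK receptors, cytokine receptors and trafficking receptors did not share this rise. Genes of glycolysis, the hypoxia response, cholesterol and fatty acid synthesis, and cell division were mostly lower. In limma, 51.1% of tested genes had a Benjamini-Hochberg adjusted p under 0.05 and are here named called, 30.2% higher and 20.9% lower in YFP-. Requiring also a change of at least 1 on the log2 scale left 15.4% higher and 10.8% lower. These shares are the background for every count below, as is the median change of all tested genes, 0.14. Of the calls, 59.1% were higher as deposited, 47.1% without rRNA-like features in the totals, 49.9% with samples centred on their medians and 49.3% after quantile normalization. The median change of all genes without rRNA-like features was -0.05, so small changes near 0 depend on the scaling. Changes of at least 4 in log2 were found for 135 genes in the higher and 9 in the lower direction. The 4 YFP- and 4 unstimulated values did not overlap for 6514 of the 12364 tested genes, which is the background for every statement of no overlap. Log2 changes are YFP- minus unstimulated, each with the SE of the fit where given.

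**Figure D1:**
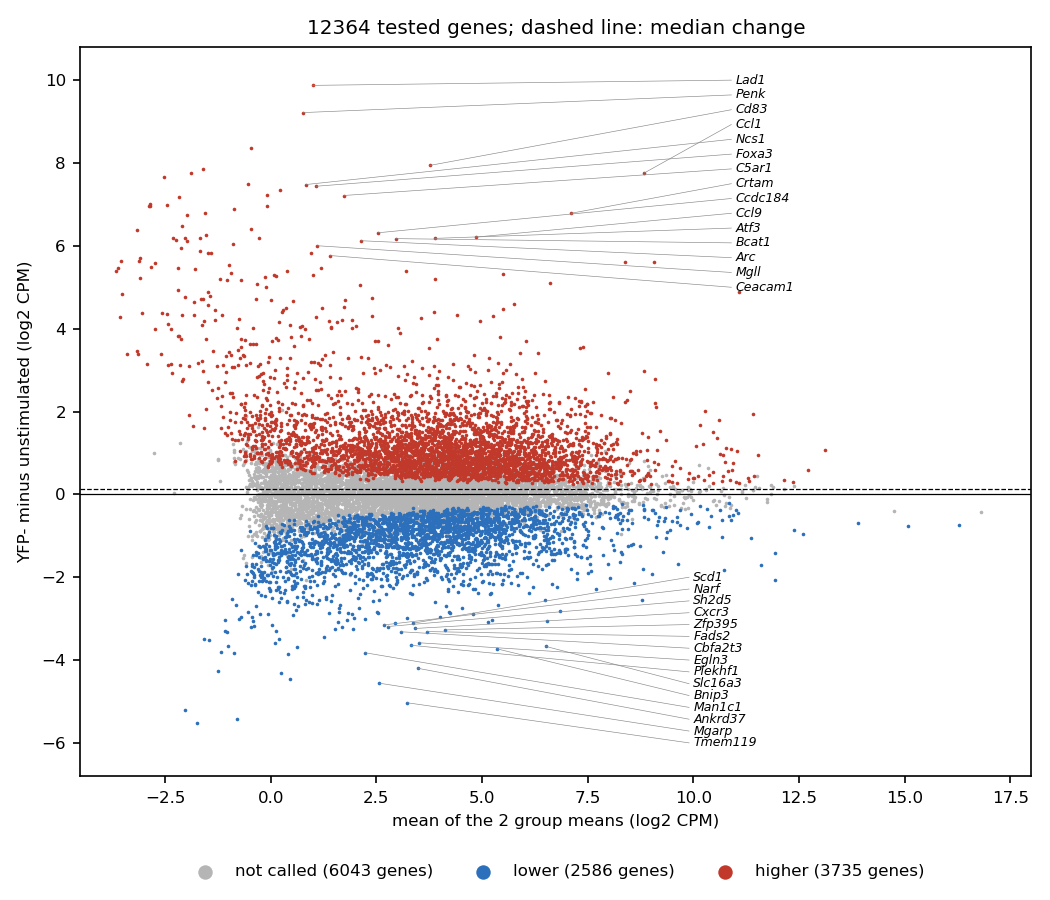
Change between the groups (YFP- minus unstimulated, log2 CPM) against the mean of the group means (log2 CPM) for each of 12364 tested genes, red where called higher and blue where called lower. The 30 genes with names are the 15 largest rises and 15 largest falls by the rule for naming, from Lad1 at 9.87 to Tmem119 at -5.03, and the dashed line is the median change of 0.14.

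The largest rises were led by genes that unstimulated cells hardly expressed. Lad1, which encodes the filament-anchoring protein ladinin, had 0.105, 0.0789, 0 and 0.123 CPM in unstimulated samples f2, m2, m3 and m4 and 78.9, 64.2, 34.6 and 78.4 CPM in YFP- samples. Penk, the precursor of enkephalin peptides, went from 0.105, 0.0526, 0 and 0.247 to 85.5, 43.9, 23.6 and 34.2 CPM in the same order. The lowest YFP- value was 281-fold above the highest unstimulated value for Lad1 and 95.7-fold for Penk. Their log2 changes of 9.87 ± 0.65 and 9.22 ± 0.72 rest on 0 to 4 and 0 to 8 reads per unstimulated library and so depend on the prior count. A calcium sensor of neurons, Ncs1, (7.48 ± 0.39), the liver transcription factor gene Foxa3 (7.44 ± 0.50) and the complement receptor gene C5ar1 (7.21 ± 0.64) also rose from 2 to 8, 2 to 12 and 3 to 20 reads per library. Further rises were those of Ccdc184 (6.32), the branched-chain amino acid transaminase gene Bcat1 (6.17), Arc (6.12), an immediate-early gene of neurons, the monoacylglycerol lipase gene Mgll (6.00) and Ceacam1 (5.77), an adhesion receptor with an inhibitory cytoplasmic tail. Cd83, Ccl1, Crtam, Ccl9 and Atf3 complete the 15 and are described with their groups.

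The 15 largest falls were taken among genes with a mean log2 CPM of at least 4 in unstimulated samples, so falls of genes with lower levels are not among them. Tmem119, a membrane protein best known from microglia and bone, had 78.6, 78.7, 47.2 and 29.0 CPM in unstimulated and 1.44, 2.49, 2.21 and 0.897 CPM in YFP- samples. Its lowest unstimulated value was 11.6-fold above its highest YFP- value (-5.03 ± 0.87, limma adjusted p = 0.00033). Mgarp, a mitochondrial transport protein, fell to 1.23 ± 0.230 CPM (SD, n = 4) from 29.1 ± 4.23 CPM (-4.56 ± 0.35), Man1c1, a Golgi mannosidase, changed by -3.82, and Plekhf1, an endosomal phosphoinositide-binding protein, by -3.64. Transcriptional regulators among the falls were the corepressor gene Cbfa2t3 (-3.32) and the zinc finger gene Zfp395 (-3.27). Sh2d5 changed by -3.19. The remaining falls, Ankrd37, Bnip3, Slc16a3, Egln3, Narf, Fads2, Scd1 and Cxcr3, belong to the hypoxia, lipid and trafficking groups below.

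The genes of the triggering receptor and of the reporter locus moved in opposite directions. Klrb1c encodes NK1.1 and is a protein-coding gene with the identifier ENSMUSG00000030325, annotated in GRCm38 on chromosome 6, 128778485 to 128789215, minus strand. It had 299, 314, 290.2 and 327 CPM in unstimulated and 76.6, 86.6, 57.6 and 80.5 CPM in YFP- samples. All 4 YFP- samples lay below all unstimulated samples (-2.05 ± 0.23). Reads of Klrb1 genes can be shared between near-identical relatives, and values of Klrb1, Klra and Klrc genes are therefore uncertain. Ifng, the protein-coding gene of interferon gamma, carries the identifier ENSMUSG00000055170 and lies on chromosome 10, 118441046 to 118445892, plus strand. It had 4.04, 3.79, 3.66 and 4.19 CPM in unstimulated and 44.8, 54.5, 36.6 and 47.2 CPM in YFP- samples. Reporter-negative samples thus held Ifng transcript at 45.8 ± 7.37 CPM (SD, n = 4), and each lay above all unstimulated samples (3.53 ± 0.13).

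Among 22 NK receptor genes tested, 7 were higher, 6 lower and 9 not called, with a median change of 0.11, which was -0.07 without rRNA-like features in the totals. The inhibitory receptor gene Klrc1 (NKG2A) rose most (2.22 ± 0.36), from 55.2, 56.3, 47.2 and 51.0 to 219, 261, 185 and 337 CPM. Fcgr3, the activating receptor for IgG that mediates antibody-dependent killing, fell (-1.34 ± 0.17), as did Cd7 (-0.88) and Klrb1a (-0.66), the latter not without replicate label m2 (limma adjusted p = 0.0513). Klrd1, the CD94 partner of NKG2 receptors, changed by -0.52. The activating receptor gene Ncr1 was not called (-0.16, limma adjusted p = 0.29), but was called lower without rRNA-like features in the totals (limma adjusted p = 0.00721).

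Genes for the signalling chain behind the receptor were more often lower than higher. Of 31 tested ITAM adaptors and proximal kinases, 13 fell, 6 rose and 12 were not called (median -0.14). Syk, the kinase recruited by phosphorylated ITAMs, went from 27.8 ± 3.85 to 7.93 ± 1.21 CPM (-1.81 ± 0.18). Pik3cd, the leukocyte PI3 kinase subunit, changed by -1.36, the guanine exchange factor gene Vav3 by -1.29 and Cd247, the zeta chain, by -1.19. Lcp2, the scaffold SLP-76, rose by 1.94. The kinase gene Lck was not called (-0.60, limma adjusted p = 0.077), but was called lower in a fit of the 8 compared samples alone (limma adjusted p = 0.0016).

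Transcription factor genes induced by antigen receptors were higher at 6 h as a group, but not all of them. Of 28 tested, 18 rose, 3 fell and 7 were not called (median 1.28). Atf3, a stress-induced bZIP factor, had 2.07, 2.10, 1.41 and 1.42 CPM in unstimulated and 145, 101, 92.0 and 183 CPM in YFP- samples. The lowest YFP- value was 43.7-fold above the highest unstimulated one (6.18 ± 0.33, limma adjusted p = 2.2e-08). Batf3 (5.31 ± 0.36), which pairs with Jun proteins, rose from 8 to 20 reads per unstimulated library, and Fosl1 (3.77 ± 0.46) from 3 to 22. Egr2 rose by 4.59, Irf4 by 3.90 and the nuclear receptor gene Nr4a1, a widely used mark of antigen receptor signalling, by 4.30. For Nr4a1 the samples had 13.9, 9.47, 6.20 and 6.60 CPM without stimulation and 207, 185, 113 and 190.0 CPM with it, so the groups did not overlap. Jun and Jund, both AP-1 subunits, and Hif1a were not called (-0.14, -0.14 and 0.26), and neither was Fos (0.28). Nfil3, a basic leucine zipper factor needed for NK development, was lower in all 4 samples (72.7, 80.8, 67.9 and 54.9 against 20.4, 16.5, 16.2 and 19.6 CPM, -1.92 ± 0.20).

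Secreted products and membrane-bound ligands had the largest median change of the 31 gene lists. Of 34 cytokine and chemokine genes, 28 passed the filter, of which 23 rose, 1 fell and 4 were not called (median 3.24). Il3, Il4, Il10, Il13, Il21 and Il24 did not pass the filter. Like the other lists, this one holds genes chosen with results of these samples known, so its direction is not independent evidence. Ccl3, the chemokine MIP-1 alpha, had 77.8, 71.7, 71.0 and 85.0 CPM in unstimulated and 3743, 3661, 3077 and 4597 CPM in YFP- samples. Ccl1, a ligand of CCR8, had 30.2, 27.1, 24.4 and 47.1 CPM and 7019, 6202, 5625 and 8512 CPM. The lowest YFP- value stood 36.2-fold above the highest unstimulated value for Ccl3 and 119-fold for Ccl1, with log2 changes of 5.61 ± 0.12 and 7.76 ± 0.19. Ccl9 rose by 6.21, Ccl4, or MIP-1 beta, by 4.90 and the lymphotactin gene Xcl1 by 5.60. Granulocyte-macrophage colony-stimulating factor, Csf2, had 0 to 6 reads per unstimulated library and 13.8 ± 4.68 CPM in YFP- samples (SD, n = 4), and macrophage colony-stimulating factor, Csf1, went from 0 to 2 reads per library to 1.87 ± 0.668 CPM.

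Members of the cytokine list that encode ligands of the tumour necrosis factor family were chosen after their values were seen. Tnf had 3.23, 3.39, 3.87 and 2.31 CPM in unstimulated and 65.4, 61.9, 65.7 and 75.1 CPM in YFP- samples (4.40 ± 0.17), and lymphotoxin alpha, Lta, had 0.892, 1.79, 1.51 and 1.66 and 64.6, 48.8, 46.1 and 89.4 CPM (5.40 ± 0.26). No YFP- value of either gene reached down to an unstimulated one. The ligands of CD30 (Tnfsf8), RANK (Tnfsf11) and HVEM (Tnfsf14) rose by 4.73, 4.52 and 4.02. Fasl, whose product triggers death receptors, and Ltb, lymphotoxin beta, were not called (0.39 and 0.37, limma adjusted p = 0.17 and 0.2). Fitted on the 8 compared samples alone, Fasl was called higher (limma adjusted p = 0.024). The member that fell was Flt3l, a growth factor for dendritic cells (-1.56 ± 0.16), with 22.2, 29.4, 29.0 and 22.5 CPM in unstimulated and 9.07, 10.2, 7.46 and 8.28 CPM in YFP- samples.

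**Figure D2:**
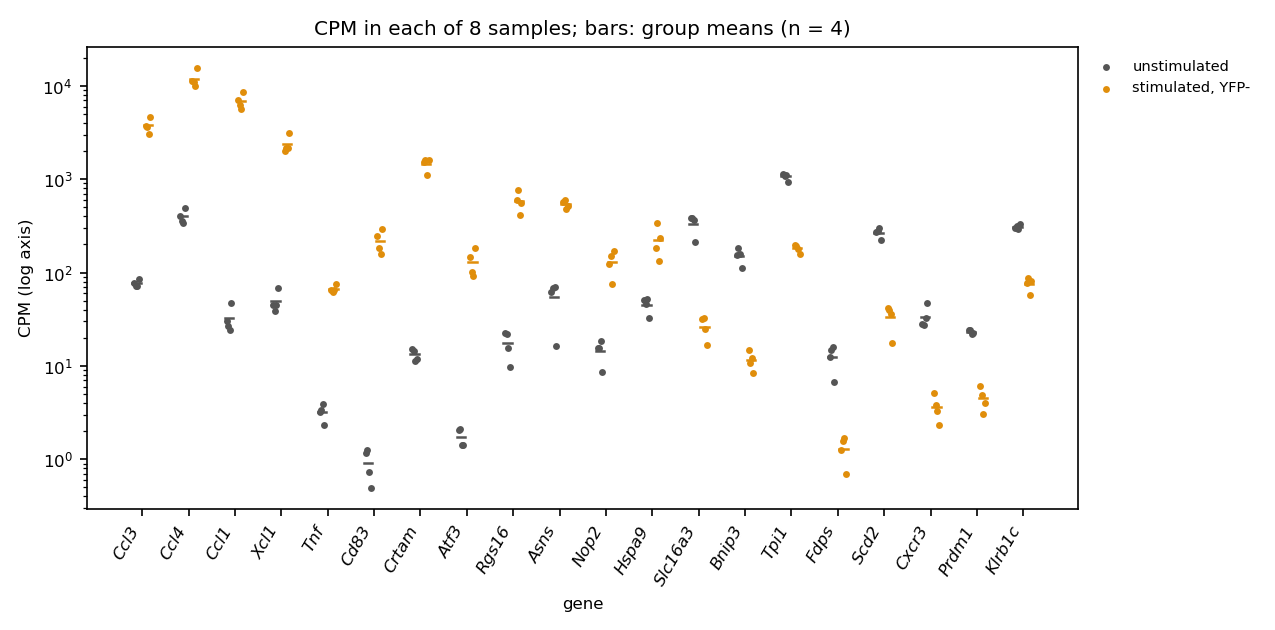
CPM on a log axis in each unstimulated (grey) and YFP- (orange) sample for 20 genes named in the text, with bars at the group means (n = 4). Chemokine, receptor, transcription factor and biosynthesis genes on the left are higher in YFP-, and Slc16a3, Bnip3, Tpi1, Fdps, Scd2, Cxcr3, Prdm1 and Klrb1c on the right are lower, with no overlap between the groups in any of the 20. The rule for naming the largest changes required this, and 6514 of 12364 tested genes had it.

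Surface receptors of activation followed, with 19 of 28 tested genes higher, 3 lower and 6 not called (median 1.23). Cd83, an immunoglobulin family receptor of activated lymphocytes and dendritic cells, had 1.18, 1.26, 0.728 and 0.493 CPM in unstimulated and 244, 185, 157 and 291 CPM in YFP- samples (7.94 ± 0.48). Crtam, an adhesion receptor that binds a nectin-like ligand, rose from 15.3, 14.6, 11.3 and 11.8 to 1527, 1612, 1121 and 1620.0 CPM (6.79 ± 0.28). Tnfrsf4 (OX40) rose by 5.47, Il2ra (CD25, the high-affinity subunit of the IL-2 receptor) by 5.32 and Icam1 by 3.42. Pdcd1, the gene of the inhibitory receptor PD-1, rose from 0 to 8 to 59 to 167 reads per library, which is a low level even after the change (2.13 ± 0.902 CPM). Ctla4 fell (-2.42 ± 0.35), and Cd244a, a receptor for CD48, was not called (-0.25). Without rRNA-like features in the totals Cd244a was called lower (limma adjusted p = 0.0145).

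Genes that restrain receptor signalling were mostly higher. Of 42 tested, 24 rose, 10 fell and 8 were not called (median 0.84). Rgs16, which shortens G protein signals, had 22.3, 22.2, 15.5 and 9.68 CPM in unstimulated and 592, 769, 416 and 550.3 CPM in YFP- samples (5.10 ± 0.42). Dusp4, a MAP kinase phosphatase, rose by 4.0, and Nfkbia and Nfkbie, which encode inhibitors of NF-kappaB, by 2.79 and 2.62. Nfkbid, a nuclear relative of these inhibitors, rose by 3.40, and Spry1, an inhibitor of Ras signalling, by 3.38, from 0 to 6 reads per unstimulated library. The call of Spry1 was lost after quantile normalization (1.47, limma adjusted p = 0.145). Dusp5, another MAP kinase phosphatase gene, was not called (-0.28). Leaving out replicate label m3 or m4 left 6 or 5 of the 10 lower members called.

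Nfkbia and Tnfaip3, the A20 ubiquitin-editing enzyme (1.54 ± 0.16), both restrain NF-kappaB. They are the 2 called feedback inhibitors with the largest rises among those that hold the letters of an NF-kappaB site. Tnfaip3 has 2 listed promoters, of which the first is used. The promoters of both genes are printed. They are the RefSeq sequences (GRCm38.p6) of the 250 bases before the annotated start, 5′ to 3′ on the gene's strand, with matches to GGANTTTCC on either strand in capitals. Nfkbia lies on the minus strand (chr12:55492648-55492897) and Tnfaip3 on the minus strand (chr10:19015411-19015660).
Nfkbia: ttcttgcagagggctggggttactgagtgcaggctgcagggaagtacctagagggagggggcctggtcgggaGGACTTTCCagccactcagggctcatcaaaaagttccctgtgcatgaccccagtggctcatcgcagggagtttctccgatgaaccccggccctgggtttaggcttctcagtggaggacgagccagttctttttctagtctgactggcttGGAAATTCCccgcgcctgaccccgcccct
Tnfaip3: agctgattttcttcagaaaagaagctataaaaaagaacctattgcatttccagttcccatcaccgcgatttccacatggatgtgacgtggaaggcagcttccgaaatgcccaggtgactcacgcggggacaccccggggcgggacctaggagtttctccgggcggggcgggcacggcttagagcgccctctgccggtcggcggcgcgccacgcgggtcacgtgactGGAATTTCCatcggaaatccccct
The match was present in 1.0% of the first listed promoters of tested genes (8704 of 12364 genes had one), in 8.3% of 36 feedback inhibitor promoters and in 13.6% of 22 cytokine and chemokine promoters. It was also in 14.3% of 21 promoters of the list of GBPs, IRGs and class I presentation genes, in which 4 genes rose and 7 fell. Each of these 3 list shares rests on 3 promoters. In the list of activation transcription factors 0 of 20 promoters held the match. It was in 1.1% of promoters of genes called higher by at least 1 and in 0.7% of those called lower by at least 1. The lists were chosen with results of these samples known, so their shares describe the lists and not these samples. A match describes letters in this window and is not a shown binding site.

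Genes of the cytotoxic machinery changed in both directions. Of 28 granule and degranulation genes tested, 12 rose, 8 fell and 8 were not called (median 0.47), and without rRNA-like features in the totals 10 rose and 10 fell. Without replicate label m3 or m4, 4 or 5 fell. Serpinb9, the inhibitor that protects a killer cell from its own granzyme B, had 182, 180.2, 155 and 109 CPM in unstimulated and 789, 934, 800.1 and 924 CPM in YFP- samples (2.49 ± 0.27). Serglycin, Srgn, the proteoglycan core of the granule, rose by 2.02, and the SNARE gene Stx11 by 1.6. Granzymes B and A, the most abundant of the list, moved apart, Gzmb from 6165 ± 714 to 12849 ± 909 CPM (1.06 ± 0.11) and Gzma from 8603 ± 773 to 4483 ± 577 CPM (-0.95 ± 0.11). Reads can be shared within the granzyme and serpin families, so these values are uncertain. Perforin, Prf1, was not called (0.43 ± 0.28, limma adjusted p = 0.22). Lyst, a lysosomal trafficking regulator mutated in Chediak-Higashi syndrome, fell in all 4 samples (13.8, 15.0, 17.3 and 20.4 against 3.93, 4.15, 2.63 and 4.87 CPM).

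Genes for amino acid supply and tRNA charging rose almost without exception. Of 35 ATF4 targets and cytosolic tRNA synthetases tested, 33 were higher and 1 lower (median 2.18), against a background of 30.2% higher. The list was chosen with results of these samples known, so this count is not independent evidence. ATF4 is a transcription factor of the integrated stress response that also acts downstream of mTOR. Asns, asparagine synthetase, had 61.2, 69.0, 69.9 and 16.2 CPM in unstimulated and 569, 600.2, 485 and 522 CPM in YFP- samples (3.53 ± 0.47, limma adjusted p = 4.4e-05). Chac1, a glutathione-degrading enzyme, went from 8.97, 9.50, 10.2 and 6.81 to 108, 94.5, 68.9 and 97.1 CPM (3.37 ± 0.19). Neither gene had overlapping groups. The mitochondrial folate enzyme gene Mthfd2 rose by 2.93, the cystine transporter gene Slc7a11 by 2.56, and the tyrosyl and tryptophanyl tRNA synthetase genes Yars and Wars by 2.59 and 2.59. The gene that was not called was Qars (0.88, limma adjusted p = 0.13), and Vars, valyl tRNA synthetase, was lower (-0.70 ± 0.11), with 119 ± 8.15 CPM in unstimulated and 73.7 ± 8.48 CPM in YFP- samples (SD, n = 4). Fitted on the 8 compared samples alone, Qars was called higher (limma adjusted p = 0.00885).

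Asns and Chac1 are the 2 called members with the largest rises among those whose promoters carry TGATGNAA, on either strand in capitals. ATF4 and C/EBP proteins bind together to these letters. The Asns sequence (minus strand) is chr6:7693210-7693459 and the Chac1 sequence (plus strand) is chr2:119350992-119351241, in the same build and orientation as above.
Asns: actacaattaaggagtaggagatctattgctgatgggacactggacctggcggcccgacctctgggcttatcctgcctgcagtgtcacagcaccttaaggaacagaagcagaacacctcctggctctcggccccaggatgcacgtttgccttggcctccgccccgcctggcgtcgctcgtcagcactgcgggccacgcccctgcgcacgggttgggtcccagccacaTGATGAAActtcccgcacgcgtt
Chac1: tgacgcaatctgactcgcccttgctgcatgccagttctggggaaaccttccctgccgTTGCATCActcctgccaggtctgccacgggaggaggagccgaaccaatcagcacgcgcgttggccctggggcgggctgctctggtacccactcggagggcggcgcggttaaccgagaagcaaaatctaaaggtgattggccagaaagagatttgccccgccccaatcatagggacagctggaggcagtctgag
Of 27 promoters of this list, 25.9% held a match, compared with 1.9% of promoters of all tested genes and 3.5% of all 27025 promoters in the table. The list was drawn up from known ATF4 targets, so its share describes the list and not these samples. Among genes called higher by at least 1, 3.1% held it, and among genes called lower by at least 1, 1.8%.

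Ribosome assembly genes were higher with a single exception. Of 50 ribosome biogenesis genes tested, 49 rose and none was called lower (median 1.76), and the exception, Nop10, was at 0.17 (limma adjusted p = 0.4). Nop2, a methyltransferase for ribosomal RNA, had 15.6, 15.4, 18.6 and 8.54 CPM in unstimulated and 125, 152, 75.5 and 171 CPM in YFP- samples (3.16 ± 0.48). The small-subunit assembly factor genes Pno1 and Ltv1 rose by 2.71 and 2.66, Utp4 by 2.38, the nucleolar GTPase gene Gnl2 by 2.33 and Ppan by 2.20. The ribosomal proteins themselves moved little, with 13 of 48 higher, none lower and a median of 0.18. Without rRNA-like features in the totals 2 were higher and 1 lower, and without replicate label f2, m2 or m4 the higher members numbered 8, 3 or 5. Reads of these genes can be shared with processed pseudogenes. Rpl5 had the largest change of the list, at 0.63 ± 0.09. Of 29 translation initiation genes, 25 rose and none fell (median 0.88), led by Eif2b3 (2.15), a subunit of the exchange factor for eIF2, Eif4ebp1 (1.80), which binds the cap-binding protein, and Eif4e (1.57), the cap-binding protein itself.

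Folding, secretion and turnover of proteins were represented by 3 further lists in which most members rose. Of 26 chaperone and heat shock genes, 23 were higher and none lower (median 1.03), or 15 higher without replicate label m4. Hspa9 and Hspd1, mitochondrial chaperones, rose by 2.24 ± 0.32 and 1.91 ± 0.29, and Cct6a, a subunit of the cytosolic chaperonin, by 2.35. Hspa9 had 50.4, 46.2, 52.2 and 32.9 CPM in unstimulated and 185, 339, 134 and 237 CPM in YFP- samples, without overlap. Of 34 proteasome genes, 32 rose and none fell (median 0.75), or 26 without rRNA-like features in the totals, with Psmd1 (2.10), Psme3 (1.66) and Psmc5 (1.5) changing most. Among 30 genes of the endoplasmic reticulum, 20 were higher, 3 lower and 7 not called (median 0.76). Hspa5, the chaperone BiP, rose by 2.19 ± 0.41 and Fkbp11 by 2.83, while Hsp90b1, the chaperone GRP94, was not called (-0.24). Without rRNA-like features in the totals Hsp90b1 was called lower (limma adjusted p = 0.00565).

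Of 29 tested genes of nucleotide, polyamine and one-carbon synthesis, 16 rose, 5 fell and 8 were not called (median 0.68). Ctps, which makes CTP, rose by 2.80 ± 0.40, spermidine synthase, Srm, by 2.04, and ornithine decarboxylase, Odc1, by 1.75. Tk1, the S-phase thymidine kinase, fell from 161 ± 15.2 to 34.9 ± 7.60 CPM (-2.23 ± 0.23). Tyms and Rrm1, which supply deoxynucleotides for DNA synthesis, were also called lower, at -1.0 and -1.09, as was Oaz1.

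Genes of the hypoxia response fell in YFP- cells. Of 35 tested, 26 were lower, 1 higher and 8 not called (median -1.22), against a background of 20.9% lower. This list too was chosen with results of these samples known, so its count is not independent evidence. Hypoxia-inducible factors activate most of these genes when prolyl hydroxylases are inhibited, and in lymphocytes cytokines and mTOR raise them as well. Ankrd37, a small ankyrin repeat protein, had 42.0, 46.8, 47.1 and 57.7 CPM in unstimulated and 3.52, 3.36, 2.21 and 1.75 CPM in YFP- samples (-4.20 ± 0.25, limma adjusted p = 3.9e-08). Bnip3, a mitophagy receptor, had 154, 185, 158 and 112 and 14.6, 10.7, 12.2 and 8.40 CPM (-3.73 ± 0.23). The lowest unstimulated value stood 11.9-fold above the highest YFP- value for Ankrd37 and 7.64-fold for Bnip3. Slc16a3, the lactate exporter MCT4, changed by -3.67 ± 0.34, the prolyl hydroxylase gene Egln3 by -3.58 ± 0.22, the adenylate kinase gene Ak4 by -3.44 and Narf by -3.15. Carbonic anhydrase 12, Car12, was the member that rose (1.57). Slc2a1, the glucose transporter GLUT1, was not called (-0.17), and neither was Hif1a above.

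The promoters of Ankrd37 and Bnip3, the 2 hypoxia genes with the largest falls among those that carry it, are printed with the core of a hypoxia response element, ACGTG on either strand, in capitals. Ankrd37 (minus strand) is chr8:45999851-46000100 and Bnip3 (minus strand) is chr7:138909507-138909756.
Ankrd37: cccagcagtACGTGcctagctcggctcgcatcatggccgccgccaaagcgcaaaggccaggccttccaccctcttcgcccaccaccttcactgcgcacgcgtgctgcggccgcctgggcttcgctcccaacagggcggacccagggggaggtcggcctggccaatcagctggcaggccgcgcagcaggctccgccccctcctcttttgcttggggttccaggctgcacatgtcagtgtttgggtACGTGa
Bnip3: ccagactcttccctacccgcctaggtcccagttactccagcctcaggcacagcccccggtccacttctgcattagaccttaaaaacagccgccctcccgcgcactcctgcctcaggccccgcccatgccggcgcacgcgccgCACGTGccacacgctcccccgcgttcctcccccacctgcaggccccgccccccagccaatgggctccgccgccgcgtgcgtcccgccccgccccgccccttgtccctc
In Bnip3 the 2 matches overlap on opposite strands and also spell CACGTG, an E-box. The core was present in 55.2% of 29 hypoxia gene promoters, 44.0% of 25 glycolysis promoters, and 22.8% of promoters of all tested genes. Lists in which more genes rose than fell also held it above that share, with 40.0% of 20 activation receptor promoters, 39.1% of 23 lysosome promoters and 38.1% of 21 translation initiation factor promoters, and it was in 45.5% of 11 G1 regulator promoters. It was present in 23.7% of promoters of genes called higher by at least 1 and in 21.1% of those called lower by at least 1. Most hypoxia genes are known targets of hypoxia-inducible factors, so the share in their list describes the list and not these samples.

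Glycolysis followed, with 18 of 26 tested genes lower, 2 higher and 6 not called (median -1.11). This list shares Slc16a3, Pdk1, Tpi1 and other members with the hypoxia list. Tpi1, triose phosphate isomerase, had 1145, 1088, 1119 and 923 CPM in unstimulated and 198, 192, 179.5 and 156 CPM in YFP- samples (-2.56 ± 0.13). Pdk1, a kinase that limits pyruvate entry into mitochondria, changed by -2.96 ± 0.21, Aldoc by -2.29, Eno1, enolase, by -2.07 and Pkm, pyruvate kinase, by -1.82. The fall covered the most abundant enzymes, since Eno1 went from 8012 ± 865 to 1926 ± 363 CPM and Pkm from 3293 ± 959 to 912 ± 198 CPM (SD, n = 4). Pfkp, a phosphofructokinase gene, was not called (0.36), and without replicate label m4 1 of the 2 higher members remained called. Electron transport and ATP synthase genes did not share this fall, with 10 of 35 higher, 3 lower and 22 not called (median 0.11). The share called higher was near the background of 30.2%, and the median was near that of all tested genes, 0.14. These counts depended on the scaling, since without rRNA-like features in the totals 5 were higher and 9 lower. Cycs, cytochrome c, rose by 1.37, and Ndufs1, a subunit of complex I, by 1.37, the latter not without m2 or m4 (limma adjusted p = 0.0559 and 0.0531). Without replicate label m2 or m4, 5 or 3 of the 35 genes were higher, and without m4 1 was lower.

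Lipid synthesis was lower across both the sterol and the desaturase branches. Of 32 cholesterol and fatty acid synthesis genes tested, 24 fell, 1 rose and 7 were not called (median -1.45). Most are targets of the sterol-sensing SREBP transcription factors. Fdps, farnesyl diphosphate synthase, had 12.6, 14.7, 15.9 and 6.66 CPM in unstimulated and 1.26, 1.56, 1.68 and 0.693 CPM in YFP- samples (-3.25 ± 0.33), and Scd2, a stearoyl-CoA desaturase, had 270.2, 279.7, 302 and 222 and 42.1, 39.4, 36.2 and 17.5 CPM (-3.06 ± 0.29). The YFP- values of both were below every unstimulated value. Fads2, a desaturase for polyunsaturated fatty acids, changed by -3.31 ± 0.23, Scd1 by -3.11 ± 0.26 and squalene synthase, Fdft1, by -2.39. Elovl1, which elongates very long chains, was the member that rose (0.54), though not without replicate label m2 (limma adjusted p = 0.0624). Cyp51 and Msmo1, enzymes of late sterol synthesis, were not called (-0.57 and -0.45).

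Cell cycle genes were lower in both the replication and the mitosis lists, with no member of either list called higher. Of 32 replication and G1/S genes tested, 23 fell and 9 were not called (median -1.03). E2f1, which switches on S-phase genes, had 24.6, 19.4, 22.4 and 18.6 CPM in unstimulated and 7.07, 5.13, 5.81 and 5.10 CPM in YFP- samples (-1.88 ± 0.15). Pole, the leading-strand polymerase, changed by -1.78, E2f2 by -1.66, and Gins1 and Gins2, subunits of the replicative helicase, by -1.52 and -1.67. Pcna, the sliding clamp, was not called (-0.24), but was called lower without rRNA-like features in the totals (limma adjusted p = 0.0012). Of 30 mitosis genes, 20 fell and 10 were not called (median -0.96). Foxm1, the transcription factor of G2/M genes, changed by -1.92 ± 0.22, the survivin gene Birc5 by -1.69, Mki67, the proliferation marker Ki-67, by -1.61 and Top2a by -1.43. Cdc20 and Plk1 were not called (-0.26 and -0.67). Both were called lower without rRNA-like features in the totals (limma adjusted p = 0.00869 and 0.0495).

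Pola1, the DNA polymerase alpha subunit (-1.61 ± 0.20), and Hells, a chromatin remodeller (-1.21 ± 0.22), are the 2 called replication genes with the largest falls among those that carry an E2F site in the 250 bases before the start. Matches to TTTCCCGC or TTTGGCGC on either strand are in capitals, and the sequences are chrX:93632156-93632405 (minus strand) and chr19:38930740-38930989 (plus strand).
Pola1: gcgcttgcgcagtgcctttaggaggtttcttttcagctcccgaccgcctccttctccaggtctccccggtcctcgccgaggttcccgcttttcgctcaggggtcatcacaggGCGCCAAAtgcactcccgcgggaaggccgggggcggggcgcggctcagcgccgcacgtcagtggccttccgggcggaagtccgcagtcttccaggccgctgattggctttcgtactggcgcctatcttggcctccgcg
Hells: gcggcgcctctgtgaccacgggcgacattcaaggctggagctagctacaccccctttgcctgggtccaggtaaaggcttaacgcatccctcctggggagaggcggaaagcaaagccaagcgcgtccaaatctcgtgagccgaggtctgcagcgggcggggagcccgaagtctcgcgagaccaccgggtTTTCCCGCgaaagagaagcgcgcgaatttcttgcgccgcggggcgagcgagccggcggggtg
Of 27 replication gene promoters, 29.6% held a match, against 2.9% of promoters of all tested genes. Among genes called lower by at least 1, 3.2% held one, and among those called higher by at least 1, 2.1%. In the mitosis list 0 of 24 promoters held the E2F letters. E2F factors are known to switch on S-phase genes, so the share in the replication list describes the list and not these samples.

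Among G1 regulators, genes were called in both directions. Of 15 tested, 8 fell, 4 rose and 3 were not called (median -0.61). D-type cyclins went in opposite directions. Ccnd2 rose (1.53 ± 0.14), from 337, 371, 383 and 317 to 1049.5, 1046, 780.0 and 1234 CPM, and Ccnd3 fell (-1.79 ± 0.13), from 252, 247, 253 and 267 to 88.3, 78.6, 67.3 and 62.9 CPM. Ccnd1 rose by 3.71 but reached only 3.89 ± 1.47 CPM (SD, n = 4). Inhibitors of cyclin-dependent kinases likewise parted, Cdkn1a (p21) at 1.96 ± 0.14 and Cdkn2d (p19) at -2.0 ± 0.15.

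Genes of resting and circulating lymphocytes were more often lower than higher. Of 20 tested genes linked to FOXO factors, 10 fell, 3 rose and 7 were not called (median -0.72), among them Rasa3 (-2.21), which restrains Ras and Rap, and Pik3ip1 (-2.06), an inhibitor of PI3 kinase. Gabarapl1, an autophagy gene, rose by 1.87. Of 23 trafficking and adhesion genes, 10 fell, 5 rose and 8 were not called (median -0.48), with 3 higher without replicate label m2. Cxcr3, the receptor for interferon-induced chemokines, had 28.0, 27.2, 32.7 and 47.1 CPM in unstimulated and 5.17, 3.77, 3.27 and 2.30 CPM in YFP- samples (-3.24 ± 0.27). Selplg, the P-selectin ligand, changed by -1.91 ± 0.20 and S1pr5, the receptor by which NK cells leave tissues, by -1.88. Ccr7, a homing receptor for lymph nodes, and Cxcr6 rose by 1.39 and 1.24.

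Lineage transcription factors showed no common direction, with 6 of 20 higher, 7 lower and 7 not called (median -0.07). Prdm1, which encodes the terminal differentiation factor Blimp-1, had 24.3, 24.5, 22.0 and 22.7 CPM in unstimulated and 6.09, 4.86, 3.09 and 4.04 CPM in YFP- samples (-2.41 ± 0.18). Foxo3 changed by -1.61 and Klf2 by -1.24. Zeb2 rose by 2.89 ± 0.17, Bcl6 by 2.15 and Tbx21, the T-box factor T-bet, by 1.28. Id2, a factor needed for NK development, was not called (-0.29).

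Receptors for other cytokines were also divided, with 7 of 25 higher, 7 lower and 11 not called (median -0.03). Stat5a, a transducer of IL-2 and IL-15 signals, rose from 7.61, 9.37, 10.9 and 9.34 to 86.2, 76.8, 56.6 and 83.5 CPM (3.02 ± 0.16), and Il21r rose by 2.40. Jak3, the kinase of the shared gamma chain, fell by the same test (-1.58 ± 0.20), as did Tgfbr2 (-0.97). The IL-2 and IL-15 receptor subunit gene Il2rb was not called (0.63), and Ifngr1, an interferon gamma receptor subunit, was not either (-0.96, limma adjusted p = 0.1). Both were called in these directions in a fit of the 8 compared samples alone (limma adjusted p = 0.00344 and 0.00562).

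Interferon-responsive genes did not rise as a group. Of 34 type I interferon-stimulated genes, 25 passed the filter, of which 3 rose, 10 fell and 12 were not called (median -0.43). Samd9l changed by -1.90, Zbp1, a sensor of nucleic acids, by -1.46 and Irf7 by -0.96, while Mx1, an antiviral GTPase, rose by 1.29. Without replicate label m2 that call was lost (limma adjusted p = 0.0517) and 1 of the 3 higher members was called. Of 30 genes of guanylate-binding proteins, immunity-related GTPases and class I presentation, 4 rose, 7 fell and 19 were not called (median -0.20), and 1 rose without replicate label m2. The class II invariant chain gene Cd74 rose by 1.95 ± 0.25 and Nlrc5, the transactivator of class I genes, fell (-1.69 ± 0.18). Gbp2, induced by interferon gamma in many cells, had 10.6, 11.6, 11.3 and 9.83 CPM in unstimulated and 10.4, 28.6, 8.99 and 14.2 CPM in YFP- samples, with overlapping groups (0.37, limma adjusted p = 0.53).

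Genes of cell survival and death were divided. Of 23 genes of the BCL2 family and cell death tested, 10 rose, 4 fell and 9 were not called (median 0.45), and without rRNA-like features in the totals 7 rose and 6 fell. Bcl2l1, which encodes the survival factor BCL-XL, had 41.5, 38.2, 38.8 and 24.7 CPM in unstimulated and 252, 239.9, 169 and 290.3 CPM in YFP- samples (2.73 ± 0.34). Bcl2a1d, Bcl2a1a and Bcl2a1b rose by 3.69, 4.07 and 3.23, but these are near-identical copies whose reads cannot be assigned with certainty. The death receptor gene Fas rose as well (3.70 ± 0.33), as did Bcl2l11, the pro-apoptotic BIM (1.92). Mcl1 and Bcl2, survival factors of resting NK cells, were not called (0.13 and 0.06).

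Structural and lysosomal genes completed the lists. Of 31 actin and cytoskeleton genes, 15 fell, 2 rose and 14 were not called (median -0.36), led by Tubb5 (-2.13 ± 0.20), Vim (-1.81 ± 0.29) and Tuba1b (-1.69). Without replicate label m2, m3 or m4, the higher members numbered 0, 5 or 0. Actb, the cytoplasmic beta-actin gene, was not called (-0.40). Of 32 lysosomal genes, 12 rose, 6 fell and 14 were not called (median 0.21). Cathepsin L, Ctsl, rose from 1.68, 0.737, 0.301 and 0.832 to 9.10, 7.84, 6.54 and 7.95 CPM (3.36 ± 0.38) and Tfeb, a regulator of lysosomal genes, by 1.97.

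**Figure D3:**
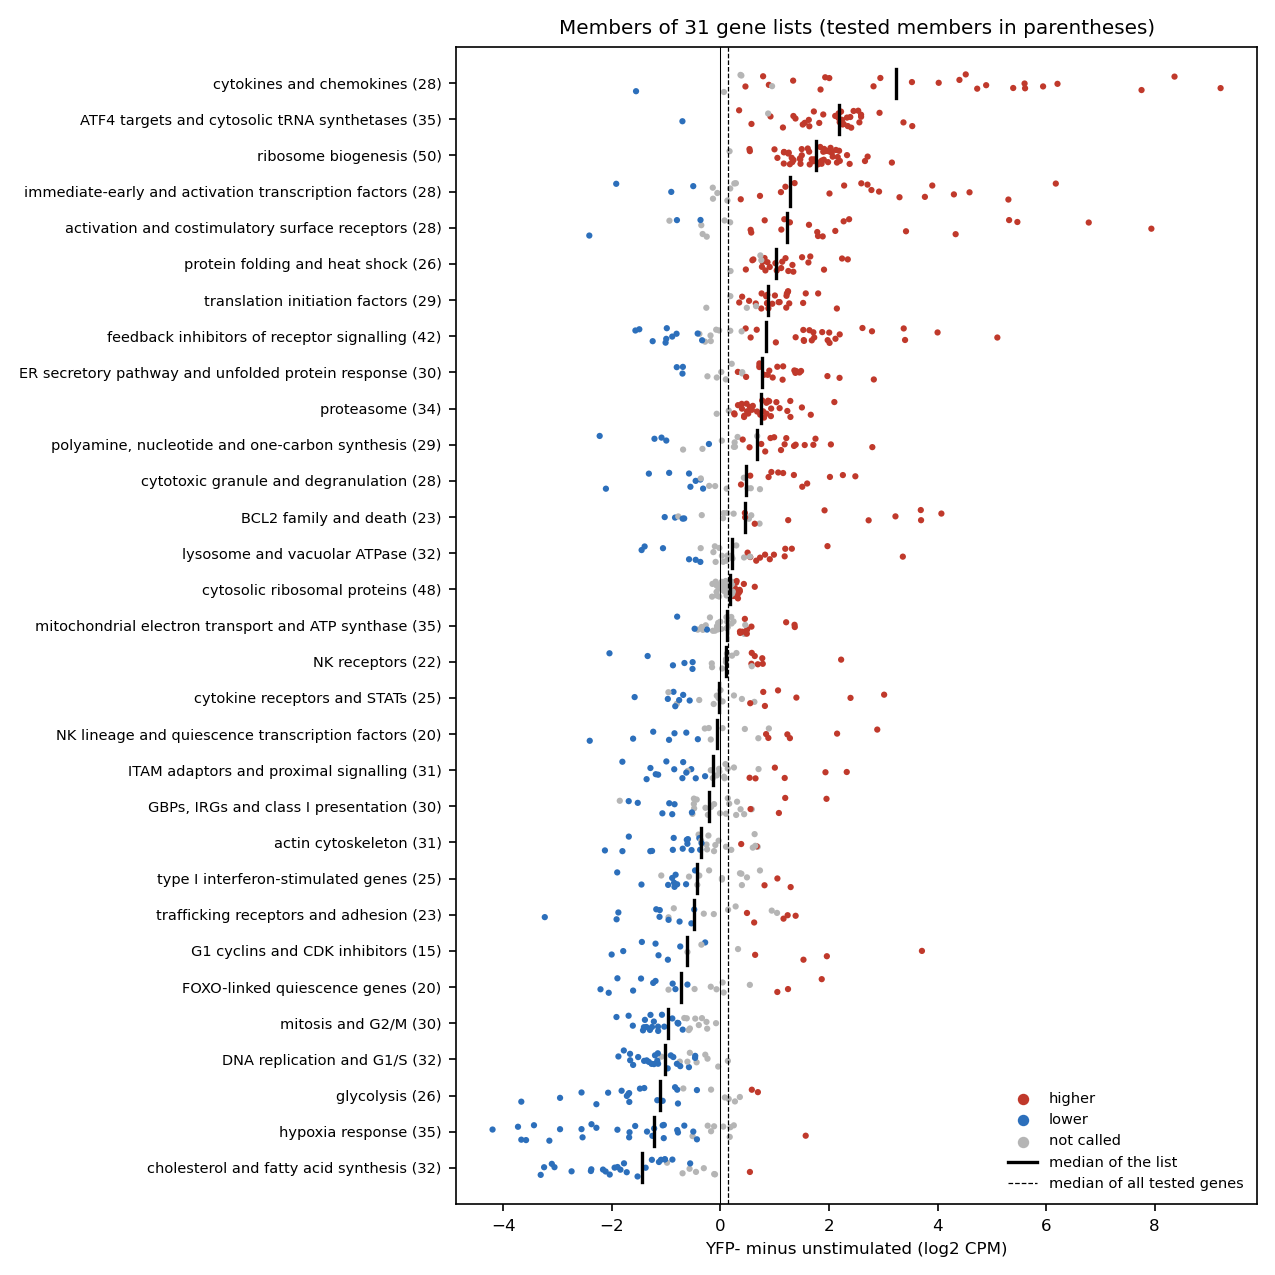
Change (YFP- minus unstimulated, log2 CPM) of each tested member of 31 gene lists, sorted by the list's median (black bars), red where called higher, blue where called lower and grey where not called. ATF4 targets, ribosome biogenesis and cytokines lie mostly to the right of the dashed line at the median of all tested genes, 0.14, and cholesterol synthesis, hypoxia, glycolysis and cell cycle lists to its left.

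Levels in YFP+ samples, which share the stimulus but carried reporter signal, are set beside these values. The YFP+ minus YFP- changes share the YFP- samples with the changes above, so they are only listed beside them. Ccl3 and Pdcd1 were higher still in YFP+, with mean levels for Ccl3 of 76.4, 3769.5 and 11371 CPM in unstimulated, YFP- and YFP+ samples (YFP+ minus YFP- 1.61), and for Pdcd1 of 0.143, 2.13 and 6.82 CPM (1.69). Other genes were highest in YFP-, among them Nr4a1, at 9.04, 174 and 18.3 CPM (-3.44), Cd83, at 0.916, 219.6 and 45.1 CPM (-2.52), and Icam1, at 25.7, 269 and 63.9 CPM (-2.42). Fas (-1.86) and Mgll (-3.52) shared this order. Egr3, which rose by 0.73 in YFP- samples, was lower in YFP+ than in unstimulated samples, at 15.9, 26.2 and 2.63 CPM (-3.32).

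Several genes that were not called between YFP- and unstimulated samples were lower in YFP+ samples. Il7r, the IL-7 receptor, had 1.99, 0.789, 0.753 and 2.47 CPM in unstimulated, 1.69, 1.54, 1.08 and 1.16 CPM in YFP- and 0, 0, 0.166 and 0 CPM in YFP+ samples (-5.83, limma adjusted p = 0.0002), a change that depends on the prior count because 3 of 4 YFP+ libraries had 0 reads. Ltb averaged 85.1, 107 and 9.99 CPM (-3.47), Tgtp2, an interferon-inducible GTPase with a near-identical copy, 24.2, 17.0 and 1.96 CPM (-3.32), and Gbp2 10.8, 15.6 and 2.72 CPM (-2.63). Tcf7, which encodes a factor of less differentiated lymphocytes and rose by 0.84 in YFP-, averaged 15.8, 28.3 and 3.97 CPM (-2.80). The biosynthetic genes Nop2 and Asns were not called between the stimulated groups, with Nop2 at 131 and 129 CPM (-0.29, limma adjusted p = 0.7) and Asns at 544 and 692 CPM (0.17, limma adjusted p = 0.83), and a p over the threshold does not show that they are equal. Lower again in YFP+ were Cxcr3 at 33.8, 3.63 and 0.533 CPM (-2.71) and Tmem119 at 58.4, 1.76 and 0.178 CPM (-4.39).

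**Figure D4:**
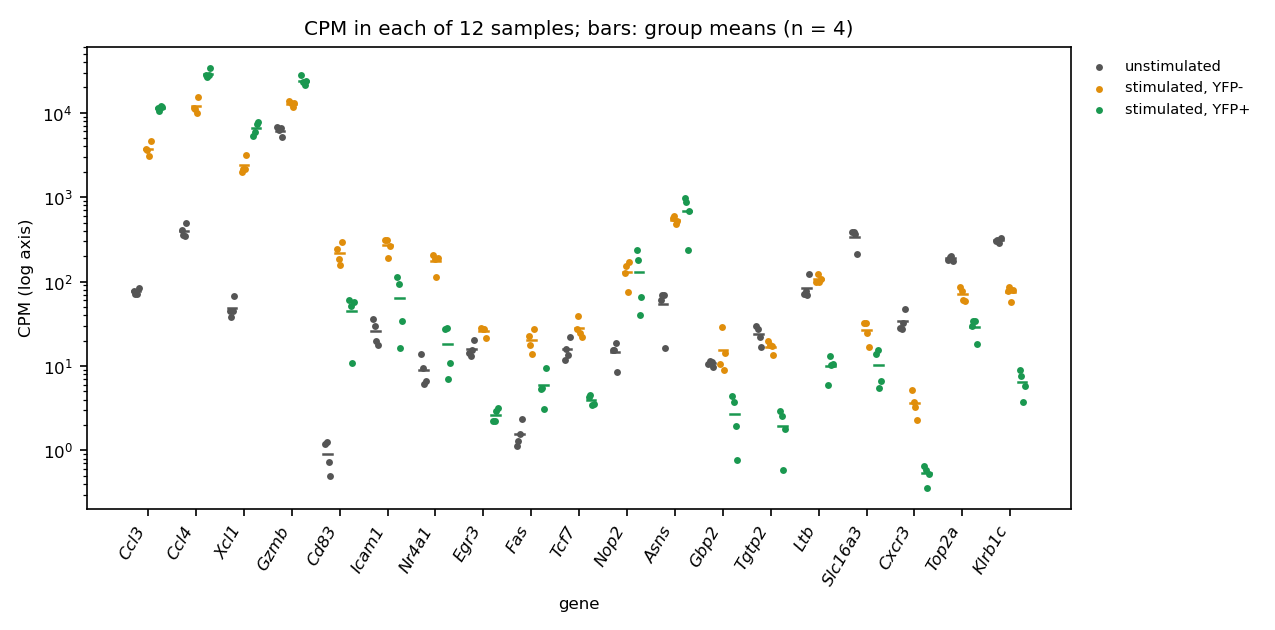
CPM on a log axis in each unstimulated (grey), YFP- (orange) and YFP+ (green) sample for 19 genes, with bars at the group means (n = 4). Ccl3, Ccl4, Xcl1 and Gzmb step upward over the 3 groups, Cd83, Icam1, Nr4a1 and Fas peak in YFP-, and Ltb and Tgtp2 are low in YFP+ only.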

How the data were processed

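RNA-seq of 12 NK cell samples was analysed, 4 per group. Per the submitters' processing notes, the build was GRCm38 and the tools included bcl2fastq, STAR 2.7.9a, Subread and featureCounts 2.0.3. The deposited data are a single table of log2 CPM, moderated per the file headers, that also gives Ensembl identifiers, symbols and biotypes. Of its 55774 lines 287 repeated another and were dropped, and 0 per-sample columns belonged to no sample. The deposited values matched log2 CPM with a prior count of 0.5 to within 5.15e-14, so 100% of values gave whole reads, from which linear CPM and library totals were computed.

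Genes with log2 CPM above 0 in at least 4 of 12 samples were fitted with limma 3.58.1 (R 4.3.3), with 1 coefficient per group, an intensity trend and Benjamini-Hochberg adjustment over all 12364 genes. Calls needed an adjusted p under 0.05. Each ± after a log2 change is the SE of the fit and each ± after a CPM value is the SD. In a test on simulated reads for this contrast (12070 genes), 86% of 100 genes changed by 1 in log2 and 100% of 98 genes changed by 2 were called. Of the unchanged genes 7 were called. All libraries were drawn from the unstimulated means with a dispersion set to 0.04. Only 200 genes were changed, and genes with few expected reads were not among them. The test therefore does not give the share recovered in the real contrast. Floors of 3 reads cover counting error only, since no molecular identifiers are named. Gene coordinates come from GENCODE M21 and promoters from RefSeq (GRCm38.p6), matched by symbol.

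Members and the 31 gene lists were chosen with earlier results of these data known. Named genes were the 15 largest rises and falls among called protein-coding genes with a symbol, a mean log2 CPM of at least 4 in the higher group and groups that do not overlap, then per list up to 6 called members with the largest change and up to 3 uncalled members with the highest mean. Ifng, Klrb1c and list members whose order over the 3 groups is given (Egr3, Il7r, Tcf7, Tgtp2, Gbp2, Ccl4, Xcl1 and Gzmb) were added. Named after their values were seen were Car12, Ctla4, Elovl1, Flt3l, Fos, Gzma, Hells, Hif1a, Klrb1a, Klrd1, Lta, Nfil3, Oaz1, Rrm1, Tnf, Tnfaip3, Tnfsf8, Tnfsf11, Tnfsf14, Tyms, Vars, list members that did not pass the filter, marker genes and the non-coding genes of the closing section. Some genes that the rule names are not reported here. The 17 alternatives covered the block, samples, filter, pseudocount, scaling, weights, threshold and each replicate label. Tables and plots were made in Python 3.11.15 with pandas 2.3.3, numpy 2.4.6 and matplotlib 3.10.9.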

Additional observations from a re-analysis of the deposited data

Results flagged for a closer look

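In 30 of 428 groups of 4 values examined (7.01%), the lowest or highest sample stood apart, meaning that its gap to the nearest sample as a share of the group's range in log2 CPM exceeded Dixon's 95% critical value. Chance flags about 5% of such groups. The unstimulated sample m4 was the low one for 16 genes. Its log2 CPM, beside the range of the other 3 unstimulated samples, was 4.02 for Asns (5.94 to 6.13), 4.63 for Bcl2l1 (5.26 to 5.38), 5.20 for Cct6a (6.00 to 6.16), 6.04 for Eif4e (6.58 to 6.67), 12.7 for Eno1 (13.0 to 13.1), 7.34 for Hspa5 (8.19 to 8.26), 3.09 for Ltv1 (4.32 to 4.50) and 3.41 for Man1c1 (4.34 to 4.45). It was 5.11 for Msmo1 (6.51 to 6.75), 5.60 for Mthfd2 (6.80 to 6.87), 10.9 for Pkm (11.9 to 11.9), 5.58 for Plk1 (6.81 to 7.04), 7.72 for Slc16a3 (8.5 to 8.58), 5.35 for Slc2a1 (5.81 to 5.85), 9.10 for Vim (9.86 to 9.99) and, at 0 reads, -6.35 for Pdcd1 (-2.62 to -2.17). The same sample was the high one for Nfkbia, at 8.06 (7.56 to 7.59). It had the smallest total of the 8 samples, 32.4 M reads, and the largest share of rRNA-like features, 35.3%, whose part in these values was not tested.

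The YFP- sample m3, with the largest rRNA-like share of its group (30.3%), was low for 6 genes. Its log2 CPM was 10.1 for Crtam (10.6 to 10.7 in the other 3), 8.15 for Hspd1 (8.90 to 9.01), 9.13 for Mthfd2 (9.54 to 9.61), 10.1 for Nfkbia (10.6 to 10.6), 7.58 for Psmc5 (7.89 to 7.95) and 4.73 for Tfeb (5.33 to 5.44). YFP- sample m4 was low for Egr3, at 4.43 (4.78 to 4.81), and Narf, at 0.329 (1.28 to 1.47), and YFP- sample f2 was high for Fcgr3, at 6.58 (5.99 to 6.07), and Tnfaip3, at 6.15 (5.64 to 5.69). In unstimulated samples, m3 was low for Lad1, at -6.35 or 0 reads (-3.45 to -2.88), m2 was high for Mgarp, at 5.15 (4.73 to 4.79), and f2 was low for Foxm1, at 4.25 (4.46 to 4.50).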

How the results depend on the processing

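Under the 17 alternatives the 4 counts over all genes stayed within 1.5 times of the reported ones, with 4636 genes called at an adjusted p under 0.01 and 7427 with sample weights, and 4717 to 6153 when a replicate label was left out. The direction of calls depended on the scaling as given in the report. With the replicate label as a block, 6682 genes were called, with 3971 genes called higher, 2711 genes called lower and 3279 genes called with a change of at least 1 in log2. The numbers do not pair the samples by the data, since deviations of samples with the same label correlated at 0.1003, -0.001489, -0.05871 and 0.06573 for f2, m2, m3 and m4, and only f2 correlated best with its own label. Of 182 called genes named, 177 kept call and direction under all alternatives and none reversed, the others being Elovl1, Klrb1a, Mx1, Ndufs1 and Spry1, whose values stand in the report. Of 3597 gene results, 61 gained a call. In a limma fit of the 8 compared samples alone, Lck, Il2rb, Ifngr1, Qars, Fasl, Actb, Cyp51 and Tgtp2 were called (adjusted p 0.0016 to 0.0376). Id2 was called lower with the replicate label as a block (limma adjusted p = 0.0278) and without rRNA-like features in the totals (limma adjusted p = 0.000211). Pcna, Hsp90b1, Ncr1, Cdc20, Cd244a and Plk1 were also called lower without rRNA-like features in the totals (limma adjusted p 0.0012 to 0.0495). Another 17 results reversed, all for genes that were not called. After quantile normalization Actb was at 0.0937, Bcl2 at -0.189, Mcl1 at -0.116 and Nop10 at -0.0714. With samples centred on their medians Bcl2 was at -0.0791, Il7r at -0.0987 and Mcl1 at -0.0113. Without rRNA-like features in the totals Bcl2 was at -0.122, Il7r at -0.14, Mcl1 at -0.0545 and Nop10 at -0.0137, and with a pseudocount of 1 CPM Il7r was at -0.0198. Over the fits without 1 replicate label Bcl2 ranged from -0.286 (m4) to 0.3266 (m3), Il7r from -0.265 (m2) to 0.4122 (m4), Jun from -0.2404 (m4) to 0.000108 (m3) and Slc2a1 from -0.3721 (m4) to 0.138 (m3). The cause was not tested. Of 1054 list counts, 62 moved by over 1.5 times, and those moved by a left-out label stand in the report. Depth limits genes with few reads, such as Csf1, Lad1 and Penk without stimulation, whose log2 changes depend on the prior count.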

Other observations

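Some long non-coding RNAs changed as well, and those named here were chosen after their values were seen. Most of those named rose, although more lincRNA features were lower than higher. Among 146 tested features of the lincRNA biotype 25 were higher in YFP- samples, 40 lower and 81 not called. Among 10416 protein-coding genes 3338 were higher, 2310 lower and 4768 not called. Over all tested genes 30.2% were higher and 20.9% lower. Snhg15, a host gene of small nucleolar RNAs, rose by 2.65 ± 0.18, with 6.22, 6.23, 6.95 and 5.43 CPM in unstimulated and 49.7, 29.6, 31.7 and 48.6 CPM in YFP- samples f2, m2, m3 and m4, and Snhg4 (1.83), Snhg17 (1.42) and Snhg1 (0.65) rose too, and no list of such host genes was counted. Mir22hg, the host transcript of a microRNA, rose by 1.80 ± 0.32, from 2.47, 2.53, 3.92 and 2.10 to 9.48, 11.8, 7.03 and 9.60 CPM. In the other direction, Lockd, a non-coding RNA transcribed next to Cdkn1b, had 27.0, 50.8, 34.0 and 30.7 CPM in unstimulated and 13.2, 9.18, 7.95 and 9.09 CPM in YFP- samples (-1.84 ± 0.28). The groups did not overlap for Snhg15, Mir22hg or Lockd.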
